A study of Homo sapiens with 15 samples.

Results

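The genes described are 10 histone lysine methyltransferases, taken by symbol from the gene table: KMT2A, KMT2B, KMT2C, KMT2D, SETD1A, SETD1B, SETD2, NSD1, EHMT1 and EZH2. They were chosen with earlier results of these data known. All 10 were found among its 37787 genes, and all 10 were among the 13868 genes with enough reads to be tested. They were measured by RNA sequencing in HGrC1, an established human granulosa cell line, in 15 libraries from 5 transfection conditions of 3 libraries each. Vectors cells received empty plasmids. FOXL2WT cells received SMAD3 and wild-type FOXL2, and FOXL2C134W cells received SMAD3 and FOXL2 carrying the substitution that marks adult granulosa cell tumors. FOXL2WT+FOXO1 and FOXL2C134W+FOXO1 cells received in addition FOXO1-3A, a constitutively active form of FOXO1. The SMAD3 plasmid was therefore given in every condition except Vectors. Plasmids were delivered transiently by lipid transfection in serum-free medium for 4 h, and RNA was taken after a further 24 h. The FOXL2 forms were in a pCS2+ backbone and FOXO1-3A was in a pCDNA3 backbone. The libraries are averages over transfected and untransfected cells of 1 line, so a change in fewer cells and a smaller change in more cells cannot be told apart.

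Histone lysine methyltransferases add methyl groups to lysines of the histone tails, and the lysine decides what the mark is associated with. Methylation of lysine 4 of histone H3 marks promoters and enhancers in use, methylation of lysine 36 marks transcribed gene bodies, and methylation of lysine 9 or lysine 27 is linked to silencing. The KMT2 and SETD1 enzymes work inside COMPASS complexes, which share a core of small subunits, and EZH2 is the catalytic subunit of the Polycomb repressive complex PRC2. Several of these enzymes, among them KMT2D, are frequently mutated in cancer.

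The libraries held between 14962245 and 25339094 estimated counts. FOXL2 was at 8.28 to 9.54 CPM (counts per 1000000, scaled by library) in Vectors and at 121 to 566 CPM in the FOXL2 transfections, and FOXO1 was at 11.6 to 13.8 CPM without its plasmid and at 39.1 to 132 CPM with it, as the labels require. The transfected genes were not equally abundant between the FOXL2 forms: FOXL2 averaged 561 ± 5.89 CPM (SD, n = 3) in FOXL2WT and 147 ± 27 CPM in FOXL2C134W, and SMAD3 averaged 2768 ± 154 CPM and 843 ± 37.4 CPM, against 249.3 ± 12.0 CPM in Vectors. Estimated counts do not separate plasmid from endogenous transcripts or mutant from wild-type FOXL2, and the part of this transcript difference in the results below was not tested. The paper describes the protein levels of both FOXL2 forms and FOXO1 as balanced, by anti-Flag immunoblot of 5 samples cultured in parallel. Its text does not describe SMAD3 protein, and protein was not measured here. Of 10 granulosa markers, FST was at 25.0 to 33.7 TPM (transcripts per 1000000) and NR5A1, HSD17B1, AMH and INHBA were at lower levels, while FSHR had 0 counts in every library and CYP19A1, AMHR2 and INHA never exceeded 7 counts. The epithelial keratin KRT7 was at 1953 to 3246 TPM, whereas CDH1 did not exceed 0.535 TPM. Summed theca and luteal markers were at 1.52 to 4.51 TPM and summed endothelial markers at 1.22 to 4.08 TPM, and of the leukocyte markers PTPRC had at most 5 counts while CD68, which is not confined to leukocytes, was at 91.8 to 131 TPM. FOXL2C134W replicate A stood apart from replicates B and C: the chi-square per degree of freedom of its counts was 7.68 against B and 8.64 against C, compared with 2.58 between B and C. FOXL2WT+FOXO1 replicate A likewise differed by 6.42 from B and 6.43 from C, against 2.80 between B and C. In FOXL2C134W+FOXO1 the values were 4.09 for A against B, 4.89 for A against C and 7.06 for B against C.

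KMT2D was the member with the largest difference between the FOXL2 forms and EZH2 the member with the smallest, and the 250 bases upstream of a RefSeq start of each are shown because the other members lay between them (RefSeq, build GRCh38.p14). The KMT2D window is chr12:49060795-49061044 on the minus strand and the EZH2 window is chr7:148884292-148884541 on the minus strand. Capitals mark CAGAC or its reverse complement GTCTG, the short SMAD box.

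KMT2D: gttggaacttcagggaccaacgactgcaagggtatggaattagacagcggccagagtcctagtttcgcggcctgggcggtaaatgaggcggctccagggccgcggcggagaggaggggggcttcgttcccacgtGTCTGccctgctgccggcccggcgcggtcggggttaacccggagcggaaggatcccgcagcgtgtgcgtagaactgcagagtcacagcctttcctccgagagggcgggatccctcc

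EZH2: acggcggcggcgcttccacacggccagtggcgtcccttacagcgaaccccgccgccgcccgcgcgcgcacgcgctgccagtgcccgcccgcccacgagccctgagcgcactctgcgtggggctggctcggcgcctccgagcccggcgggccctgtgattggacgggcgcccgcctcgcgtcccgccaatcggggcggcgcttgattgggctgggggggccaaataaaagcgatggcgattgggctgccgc

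The KMT2D window held 1 such match, 116 bases before the start, and 23 CpG dinucleotides, and this EZH2 window held no match and 38 CpG. A second RefSeq window of EZH2, not printed, held 1 match, 220 bases before its start, and 39 CpG. RefSeq windows were matched for 9 members and not for SETD1B. CAGAC or GTCTG was present in 7 of their 14 windows and in 38.0% of 35116 windows of the same length over all genes. The forkhead motif GTAAACA, or its reverse complement TGTTTAC, was present in 1 of 14 windows, at NSD1, and in 2.98% of all. Neither motif overlaps the other in these windows, and a match of letters is not a binding site.

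Levels between genes were compared as TPM of the transcript that held most of a gene's reads. In Vectors, EZH2 had the highest, 12.1 ± 2.19 TPM, followed by NSD1 at 8.03 ± 1.19 TPM, SETD2 at 6.11 ± 0.708 TPM and SETD1A at 4.13 ± 0.329 TPM. The long COMPASS enzymes were lower: KMT2A was at 1.98 ± 0.167 TPM, KMT2B at 1.97 ± 0.390 TPM, SETD1B at 1.78 ± 0.156 TPM, KMT2C at 1.54 ± 0.205 TPM and KMT2D at 1.32 ± 0.0815 TPM. KMT2A, KMT2B and SETD1B did not differ beyond their spread, and the interval of 1 SD of KMT2C overlapped those of KMT2B, SETD1B and KMT2D. The intervals of 1 SD of NSD1 and SETD2 were separate by a narrow margin. The order depends on which transcripts are counted. When TPM were summed over all transcripts of a gene, short ones included, EZH2 was at 24.9 ± 0.388 TPM and NSD1 at 22.1 ± 1.87 TPM in Vectors, and KMT2D at 4.94 ± 2.32 TPM was level with SETD1A at 4.58 ± 0.785 TPM and above SETD1B at 2.30 ± 0.186 TPM. EHMT1 could not be placed by its main transcript, since its reads were divided among near-identical transcripts and EHMT1-236 ranged from 0 to 5.74 TPM within Vectors. KMT2C-202 was likewise listed at 0 in FOXL2WT replicate A while the gene as a whole had 364 counts there, so transcript levels of these genes are less certain than gene counts. KMT2C also has partial copies elsewhere in the genome, and reads shared with them may be divided.

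**Figure D1:**
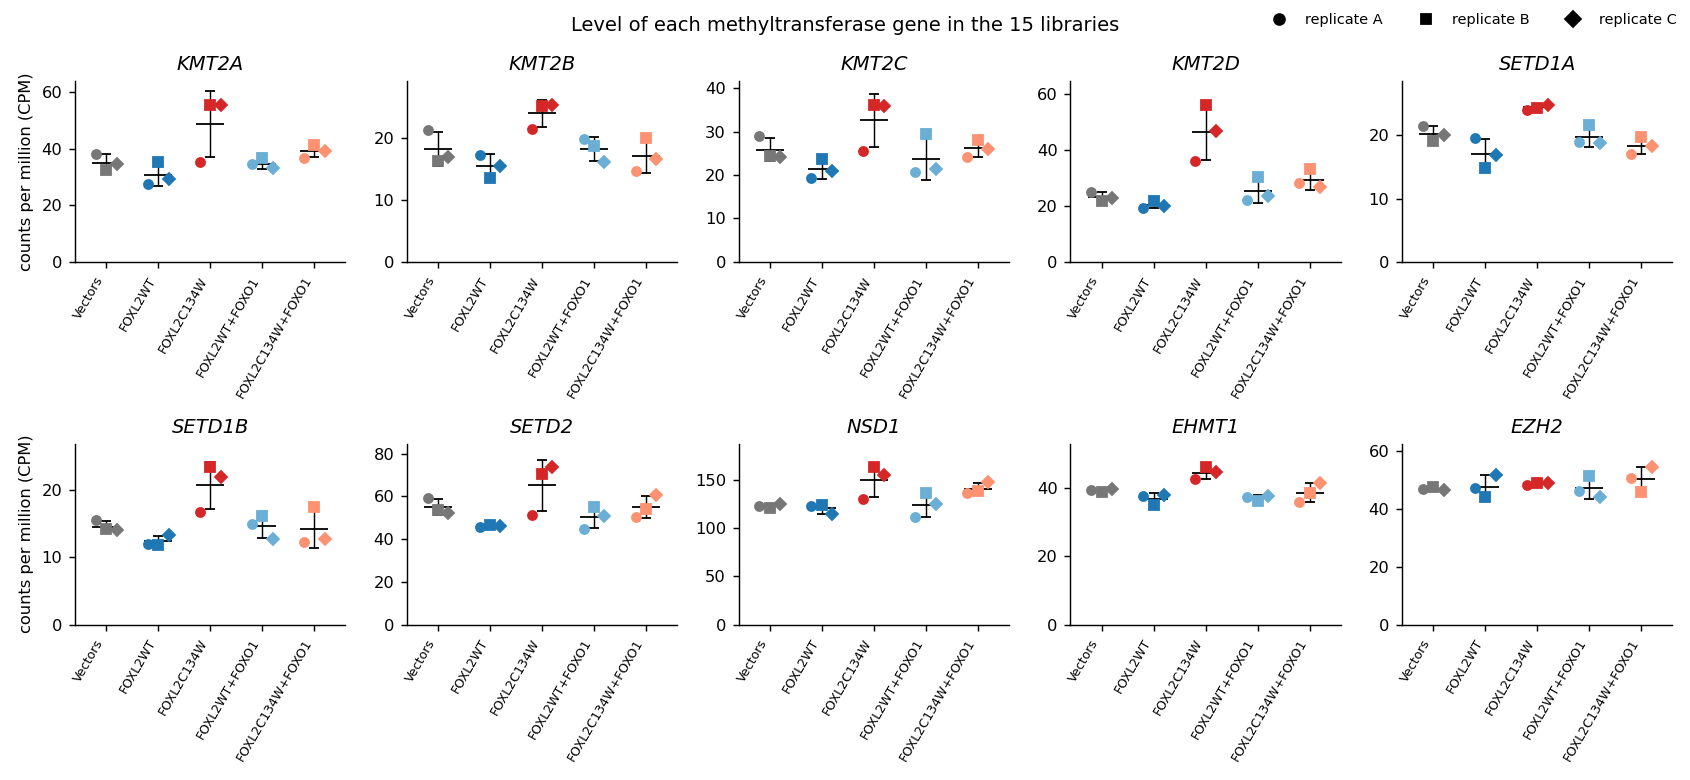
Level of each of the 10 genes in CPM (vertical axes, from 0) in the 15 libraries, with the mean and SD of each condition (n = 3) as a dash with bars and replicates A, B and C as circles, squares and diamonds. All 3 FOXL2C134W libraries lie above all 3 FOXL2WT libraries for every gene except EZH2, and FOXL2C134W replicate A is the lowest of its condition in all 10 panels.

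The comparison of FOXL2C134W with FOXL2WT asked which transcripts differed between the mutant and the wild-type factor when SMAD3 was present in both. Of the 10 members, 9 were higher in FOXL2C134W and none was lower, by edgeR's quasi-likelihood test at a Benjamini-Hochberg adjusted p below 0.05, against 7.13% of all genes tested that were called higher. The same 9 members had every mutant library above every wild-type library, which held for 14.8% of all genes. Because the members were chosen with earlier results of these data known, these shares describe the list and do not test it. The median log2 fold change was 0.56 over the 10 members and -0.01 over all genes. The same libraries of each condition serve in several comparisons below, so the comparisons are not independent of each other.

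KMT2D, which methylates lysine 4 at enhancers, changed most. It was at 19.4, 21.7 and 20.0 CPM in FOXL2WT replicates A, B and C and at 36.1, 56.2 and 46.7 CPM in FOXL2C134W. Every mutant library was above every wild-type library, and mutant replicate A was the lowest of its group. The log2 fold change was 1.19 ± 0.14 (SE), a 2.28-fold difference, with an adjusted p of 3.02e-05. It ranked 50 of 13868 genes from the top by fold change, and 93.1% of its reads were assigned to the full-length KMT2D-201. KMT2C, its close paralog with the same role at enhancers, was at 19.4, 23.6 and 20.9 CPM in FOXL2WT and at 25.6, 36.2 and 35.9 CPM in FOXL2C134W. Its log2 fold change was 0.62 ± 0.14, with an adjusted p of 0.0068.

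KMT2A, the MLL protein that keeps HOX genes active, was at 27.5, 35.2 and 29.4 CPM in FOXL2WT and at 35.3, 55.6 and 55.3 CPM in FOXL2C134W. The groups were separated only narrowly, because mutant replicate A was close to wild-type replicate B. The log2 fold change was 0.67 ± 0.13, with an adjusted p of 0.00254. KMT2B, its paralog, was at 17.2, 13.4 and 15.5 CPM in FOXL2WT and at 21.4, 25.0 and 25.3 CPM in FOXL2C134W. The log2 fold change of KMT2B was 0.63 ± 0.12, with an adjusted p of 0.00299. These 2 enzymes form the menin-containing COMPASS complexes.

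SETD1A and SETD1B are the catalytic subunits of the complexes that place most trimethylation of lysine 4 at promoters. SETD1A was at 19.6, 14.9 and 16.9 CPM in FOXL2WT and at 24.0, 24.4 and 24.9 CPM in FOXL2C134W, the tightest mutant group of the lysine 4 enzymes. Its log2 fold change was 0.51 ± 0.09, with an adjusted p of 0.00119. SETD1B was at 12.0, 11.9 and 13.3 CPM in FOXL2WT and at 16.8, 23.4 and 22.0 CPM in FOXL2C134W. It was the second-ranked member by size, with a log2 fold change of 0.73 ± 0.13 and an adjusted p of 0.00162.

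The lysine 36 enzymes had smaller log2 fold changes, but that of SETD2 was within the SE of that of SETD1A, at 0.51 ± 0.09. SETD2, which trimethylates lysine 36 behind the elongating polymerase, was at 45.7, 46.7 and 46.2 CPM in FOXL2WT and at 51.3, 70.5 and 73.5 CPM in FOXL2C134W, with a log2 fold change of 0.49 ± 0.11 and an adjusted p of 0.0054. NSD1, which dimethylates the same residue and is mutated in Sotos syndrome, was at 124, 124 and 114 CPM in FOXL2WT and at 130.4, 163 and 155 CPM in FOXL2C134W. All mutant libraries of NSD1 were higher, but replicate A was only slightly so. Its log2 fold change was 0.31 ± 0.07, with an adjusted p of 0.0102, which became 0.0507 without FOXL2WT replicate C and 0.0661 without FOXL2C134W replicate B.

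Of the enzymes linked to silencing, EHMT1 was called and EZH2 was not. EHMT1, a lysine 9 methyltransferase also known as GLP, was at 37.6, 34.8 and 37.8 CPM in FOXL2WT and at 42.5, 46.0 and 44.7 CPM in FOXL2C134W, a log2 fold change of 0.27 ± 0.06 with an adjusted p of 0.00472. EZH2, which methylates lysine 27, was at 47.1, 44.0 and 51.8 CPM in FOXL2WT and at 48.4, 49.0 and 48.9 CPM in FOXL2C134W. The EZH2 groups overlapped, and the log2 fold change of 0.03 ± 0.07 had a 95% confidence interval of -0.12 to 0.17 and an adjusted p of 0.836. An EZH2 difference as large as that of any of the other 9 members lay outside this interval.

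**Figure D2:**
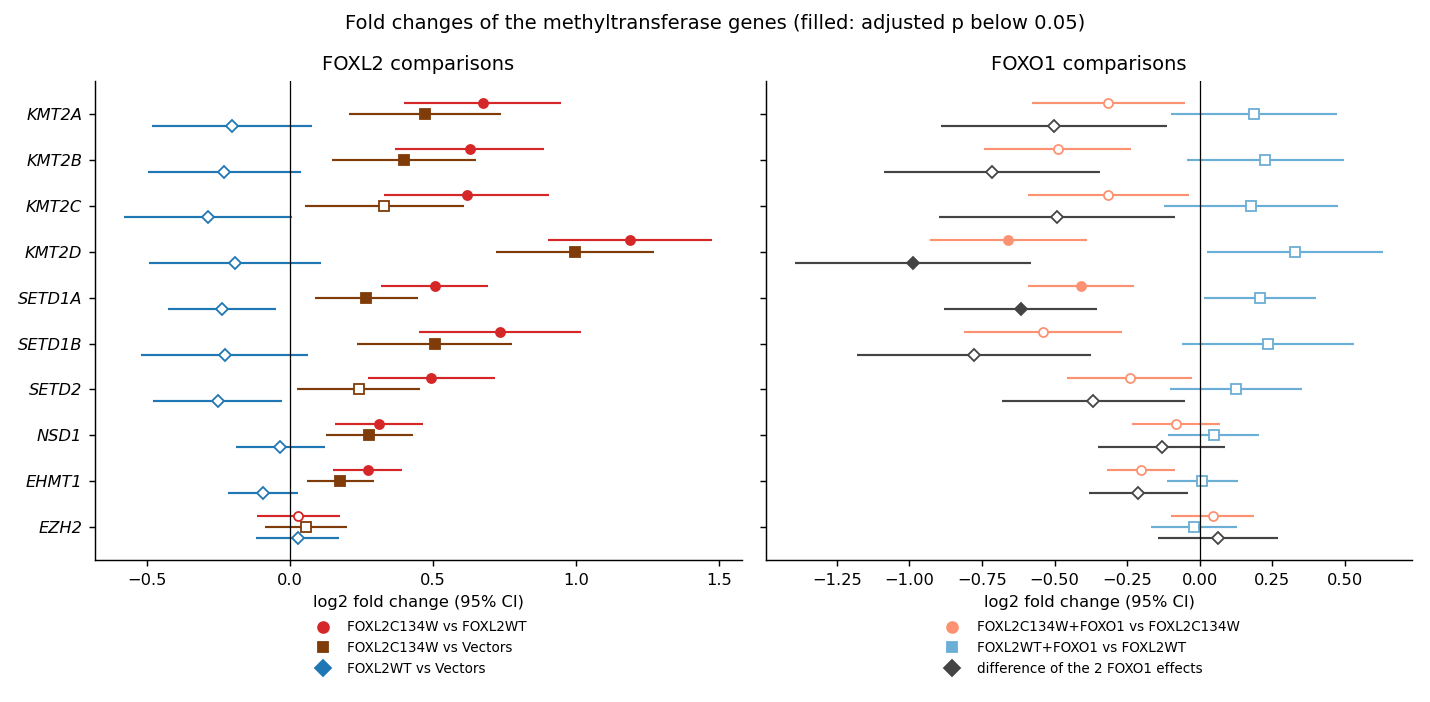
Log2 fold changes (horizontal axes) with 95% confidence intervals for the 10 genes, in the comparisons between FOXL2 forms and Vectors (left) and the comparisons with and without FOXO1 (right), where filled symbols have an adjusted p below 0.05. The FOXL2C134W against FOXL2WT values run from 0.03 for EZH2 to 1.19 for KMT2D, and the values for FOXO1 added to FOXL2C134W lie below 0 for 9 of 10 genes.

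Against Vectors, FOXL2C134W raised 7 of the 10 members, where 7.48% of all genes were called higher, and the median log2 fold change of the members was 0.30, against 0.00 over all genes. In 7 members all mutant libraries were above all Vectors libraries, against 15.7% of all genes; these included EZH2, which was not called, and left out KMT2A, which was. KMT2D was at 25.0, 21.9 and 22.7 CPM in Vectors, with a log2 fold change of 1.00 ± 0.13 and an adjusted p of 5.75e-05. SETD1B differed by 0.50 ± 0.13 (adjusted p = 0.0125), KMT2A by 0.47 ± 0.13 (adjusted p = 0.0167) and KMT2B by 0.40 ± 0.12 (adjusted p = 0.0313). NSD1 differed by 0.28 ± 0.07 (adjusted p = 0.0146), SETD1A by 0.27 ± 0.09 (adjusted p = 0.043) and EHMT1 by 0.18 ± 0.06 (adjusted p = 0.0411). KMT2C at 0.33 ± 0.13 (adjusted p = 0.106), SETD2 at 0.24 ± 0.10 (adjusted p = 0.135) and EZH2 at 0.05 ± 0.07 (adjusted p = 0.663) did not pass the test. The count depended on single libraries, since it was 2 without Vectors replicate B, 2 without Vectors replicate C, 1 without FOXL2C134W replicate B and 2 without FOXL2C134W replicate C. KMT2D was called in each of these fits. SETD1A lost its call with offsets for gene length (adjusted p = 0.119), GC content (0.0864), both (0.211) or read-weighted length (0.0897) and with a replicate block (0.0569), and EHMT1 lost it with offsets for GC content (0.0791) or for length and GC content (0.0708). KMT2B lost its call with read-weighted length (0.0678) and KMT2A with only the groups compared (0.0538). In DESeq2 with transcript length offsets KMT2A (0.832), NSD1 (0.541), SETD1A (0.591) and EHMT1 (0.715) were not called. With a filter of at least 1 count in any library EHMT1 lost its call (0.0732), and KMT2C (0.000464) and SETD2 (0.00158) gained one.

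Between FOXL2WT and Vectors none of the 10 members was called by the main edgeR fit or by DESeq2, and 2 of them had an unadjusted p below 0.05 in that edgeR fit. In edgeR with only the groups compared, KMT2C (adjusted p = 0.0317) and SETD2 (0.0053) were called lower. With a filter of at least 1 count in any library they were also called lower (0.0113 and 0.00211). Over all genes 2.46% were called higher and 3.61% lower, and 2878 of 13868 had an unadjusted p below 0.05. Of the values, 9 were negative and 1, that of EZH2, was positive, with a median of -0.22 over the members and 0.00 over all genes. In 5 members every FOXL2WT library was below every Vectors library, against 15.9% of all genes. SETD1A was at 21.5, 19.2 and 20.2 CPM in Vectors, a difference of -0.24 ± 0.09 with an adjusted p of 0.131. SETD2 was at 59.2, 53.7 and 52.3 CPM in Vectors and differed by -0.25 ± 0.11, with an adjusted p of 0.181. The 95% interval of KMT2D in this comparison ran from -0.49 to 0.11.

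Adding FOXO1-3A to FOXL2C134W asked whether FOXO1 altered the transcripts seen with the mutant. With FOXO1-3A, SMAD3 itself was lower, at 392 ± 16.9 CPM against 843 ± 37.4 CPM, a log2 fold change of -1.11 (adjusted p = 8.06e-11), and its part in the results below was not tested. Of the 10 members 2 were lower, KMT2D and SETD1A, where 0.707% of all genes were called lower. In 4 members all FOXL2C134W+FOXO1 libraries were below all FOXL2C134W libraries, against 7.72% of all genes. The members' median was -0.31, against 0.00 over all genes. KMT2D was at 28.1, 33.2 and 26.7 CPM in FOXL2C134W+FOXO1, below each FOXL2C134W library, and its log2 fold change was -0.66 ± 0.13 with an adjusted p of 0.0221. SETD1A was at 17.1, 19.8 and 18.3 CPM, also below each FOXL2C134W library, with a log2 fold change of -0.41 ± 0.09 and an adjusted p of 0.0321. SETD1B at -0.54 ± 0.13 (adjusted p = 0.0584) and KMT2B at -0.49 ± 0.12 (adjusted p = 0.0656) were of similar size and did not pass. KMT2C at -0.32 ± 0.13, KMT2A at -0.31 ± 0.13, SETD2 at -0.24 ± 0.10 and EHMT1 at -0.20 ± 0.06 had adjusted p-values from 0.107 to 0.378. NSD1 at -0.08 ± 0.07 and EZH2 at 0.05 ± 0.07 had adjusted p-values of 0.76 and 0.89.

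These calls rested on single libraries as well. Without FOXL2C134W replicate A, 8 members were called, 4 were called without FOXL2C134W+FOXO1 replicate B, and none was called without FOXL2C134W replicate B or C, or without FOXL2C134W+FOXO1 replicate A or C. In these last 4 fits KMT2D had log2 fold changes of -0.50 to -0.65 and adjusted p-values of 0.102 to 0.185. SETD1A had values of -0.36 to -0.42 and adjusted p-values of 0.102 to 0.253 there. With GC content taken into account, SETD1A was at -0.35 with an adjusted p of 0.0863. With a replicate block SETD1A had an adjusted p of 0.05, at the threshold, and was not called, and SETD1B was called at -0.54 (adjusted p = 0.0465). With only the groups compared, KMT2D had an adjusted p of 0.0886 and SETD1A of 0.0558. In DESeq2 with transcript length offsets neither gene was called, with KMT2D at -0.56 (adjusted p = 0.497) and SETD1A at -0.46 (adjusted p = 0.18), and the single member called was KMT2B at -1.41 (adjusted p = 0.0228).

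With wild-type FOXL2, SMAD3 was also lower when FOXO1-3A was added, at 969 ± 10.8 CPM against 2768 ± 154 CPM (log2 fold change -1.51, adjusted p = 1.53e-13), and FOXL2 averaged 384 ± 14.97 CPM against 561 ± 5.89 CPM. None of the members was called by the main edgeR fit or by DESeq2, and 2 had an unadjusted p below 0.05 in that edgeR fit. In edgeR with a filter of at least 1 count in any library, KMT2D was called higher (adjusted p = 0.0093). Over all genes 0.0144% were called higher and 0.0361% lower, with 1266 at an unadjusted p below 0.05. Of the 10 values, 9 were positive, with a median of 0.18 against 0.00 over all genes. KMT2D was at 22.2, 30.3 and 23.6 CPM in FOXL2WT+FOXO1, the single member with all of these libraries above FOXL2WT (6.89% of all genes), and its log2 fold change was 0.33 ± 0.14 with an adjusted p of 0.515. SETD1A was at 18.9, 21.7 and 18.9 CPM, a difference of 0.21 ± 0.09 with the same adjusted p. EHMT1 was at 37.3, 36.2 and 37.7 CPM and differed by 0.01 ± 0.06.

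The FOXO1 effect was then compared between the FOXL2 forms directly, as an interaction term. It was lower with FOXL2C134W for 2 of the 10 members, against 1.25% of all genes called lower. The difference of the log2 fold changes was -0.99 ± 0.19 for KMT2D (adjusted p = 0.0156) and -0.62 ± 0.13 for SETD1A (adjusted p = 0.0183). SETD1B at -0.78 ± 0.19 (adjusted p = 0.0506) and KMT2B at -0.72 ± 0.18 (adjusted p = 0.0513) were close to the threshold. KMT2A at -0.50 ± 0.18 (adjusted p = 0.236) and KMT2C at -0.49 ± 0.19 (adjusted p = 0.28) did not pass. The KMT2D difference became -0.84 (adjusted p = 0.0665) without FOXL2WT+FOXO1 replicate B and -0.96 (adjusted p = 0.0609) without FOXL2C134W+FOXO1 replicate A. The SETD1A difference had adjusted p-values of 0.0501 to 0.0795 when FOXL2WT replicate B, FOXL2C134W replicate B or C, FOXL2WT+FOXO1 replicate B or FOXL2C134W+FOXO1 replicate A was left out. Without FOXL2C134W replicate A, 7 members were called. In DESeq2 with transcript length offsets the adjusted p was 0.563 for KMT2D and 0.0955 for SETD1A.

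Transcript length moved with these differences over the whole transcriptome. Each gene's length was taken as the mean of its transcripts weighted by reads, and the genes tested were divided into 10 length classes of equal size. Between FOXL2C134W and FOXL2WT, 0.505% of the shortest class and 29.3% of the longest were called higher, and the median log2 fold change was -0.10 and 0.15. The longest class held 7 members (above 6186 nucleotides), from KMT2B at 7708 nucleotides to KMT2D at 18114 nucleotides. SETD1A, at 5974 nucleotides, was in the next class, where 13.8% were called higher. EHMT1, at 4296 nucleotides, was in a class with 10.7% called higher, and EZH2, at 2523 nucleotides, in one with 2.31%. The count of 9 members is therefore to be read beside these shares as well as beside the 7.13% of all genes. Within its own class, KMT2D was above 99.6% of genes by log2 fold change, SETD1A above 96.6%, SETD1B above 95.5%, KMT2A above 94.3%, KMT2B above 93.6% and KMT2C above 93.4%. EHMT1 was above 88.6% of its class, SETD2 above 88.0%, NSD1 above 76.0% and EZH2 above 66.5%.

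**Figure D3:**
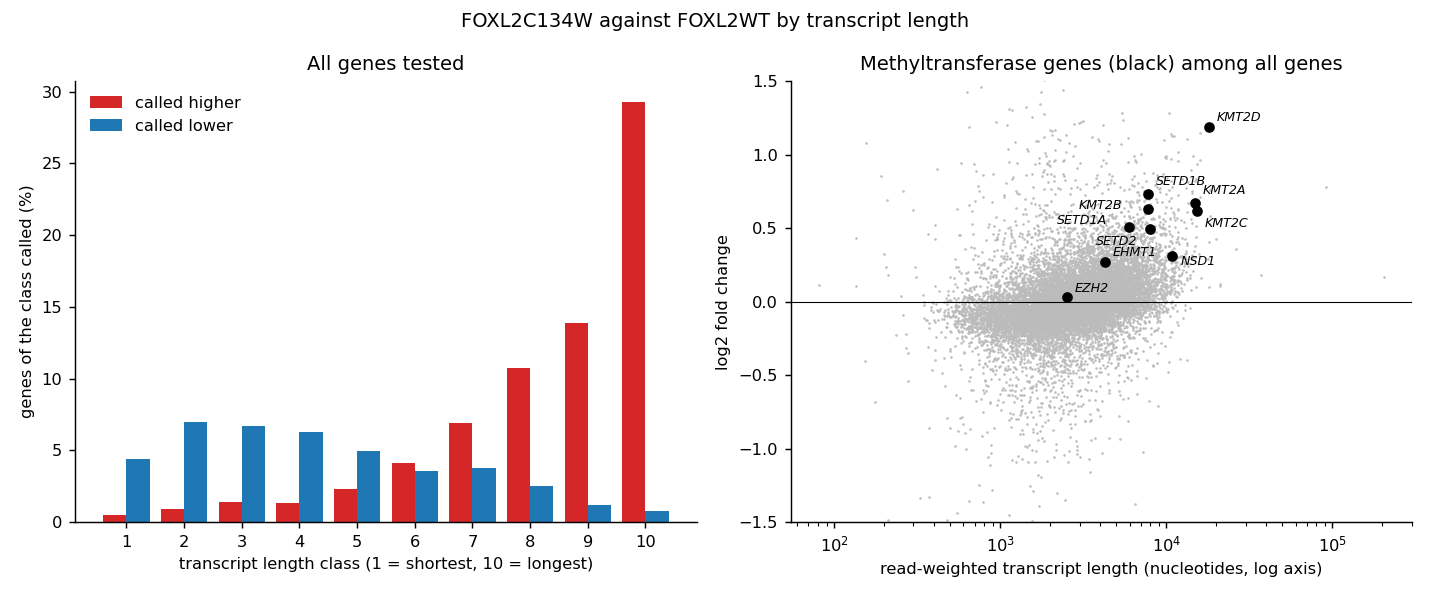
Left, share of genes (percent) called higher or lower in FOXL2C134W against FOXL2WT in each of 10 classes of read-weighted transcript length, and right, log2 fold change against that length in nucleotides on a log axis, with the 10 genes in black and 52 genes outside the vertical range of -1.5 to 1.5. The share called higher rises from 0.505% in the shortest class to 29.3% in the longest, and KMT2D lies near the upper edge of the genes of its length.

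The other comparisons showed length differences too. In the longest class, 20.4% were called higher between FOXL2C134W and Vectors, 6.42% lower between FOXL2WT and Vectors, 3.24% lower when FOXO1 was added to FOXL2C134W and 5.26% lower in the interaction. An offset that removes the smooth relation with length in each library was therefore tried. With TPM-weighted gene length, 9 members were called between the FOXL2 forms. Short transcripts weigh more in this length, so it placed several members among shorter genes than reads did. KMT2D was at 5584 nucleotides against 18114 by reads, KMT2B at 4643 against 7708 and EHMT1 at 2446 against 4296. SETD1B changed little, at 7675 against 7789. That fit therefore does not adjust such members for their length by reads. With read-weighted length, an alternative chosen after seeing the data, 8 were called: KMT2D at 0.82 (adjusted p = 2.91e-06), SETD1B at 0.57, KMT2B at 0.47, SETD1A at 0.40, KMT2A at 0.36, SETD2 at 0.33, KMT2C at 0.30 and EHMT1 at 0.22. NSD1 fell to 0.08 with an adjusted p of 0.218. When DESeq2 was given the average transcript length of each gene in each library, 5 members were called, KMT2D, KMT2C, SETD1B, SETD1A and SETD2, and EHMT1 was at -0.02 with an adjusted p of 0.979. KMT2D was called higher in each of these fits. Calls also varied over 10 classes of GC content. With FOXO1 added to FOXL2C134W, 0% of the lowest GC class and 2.02% of the highest were called lower. In the interaction these shares were 0% and 3.03%. SETD1A was in the highest GC class. KMT2B and SETD1B were in class 9 (2.17% and 3.54% called lower in these comparisons) and KMT2D in class 7 (0.577% and 1.73%). GC content was weighted by TPM, so short transcripts weigh more in it as well. KMT2D-202, of 859 nucleotides, held 42.0% of the KMT2D TPM and 4.81% of its reads. The GC classes and GC offsets therefore need not reflect the reads of such members.

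**Figure D4:**
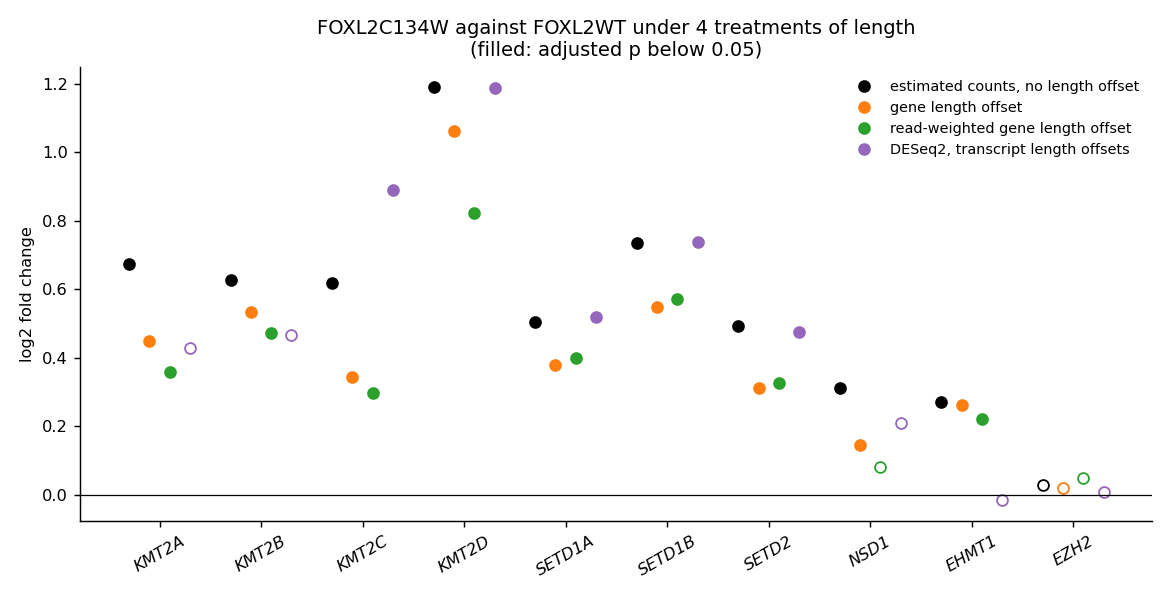
Log2 fold change (vertical axis) of the 10 genes between FOXL2C134W and FOXL2WT with no length offset, with a TPM-weighted or read-weighted gene length offset, and in DESeq2 with transcript length offsets, where filled points have an adjusted p below 0.05. KMT2D keeps the largest value in all 4, from 0.82 to 1.19, and NSD1, EHMT1, KMT2A and KMT2B lose the call in at least 1.

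The libraries were also followed one by one. The mean deviation of the 6 lysine 4 enzymes from their own 15-library averages was 0.59 and 0.53 (log2 CPM) in FOXL2C134W replicates B and C and 0.17 in replicate A. It was -0.28 to -0.29 in the 3 FOXL2WT libraries. The median deviation of the 1380 other genes of the longest class was 0.16 and 0.13 in mutant replicates B and C and -0.02 in mutant replicate A. The mean deviation of the lysine 4 enzymes in the 3 Vectors libraries was -0.15 to 0.08, and KMT2A and KMT2C were lower in mutant replicate A than in Vectors replicate A. Over the 15 libraries the Pearson r of these measures was 0.85, given as a description because conditions and library size normalization are shared. Why replicate A differs from B and C was not tested.

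**Figure D5:**
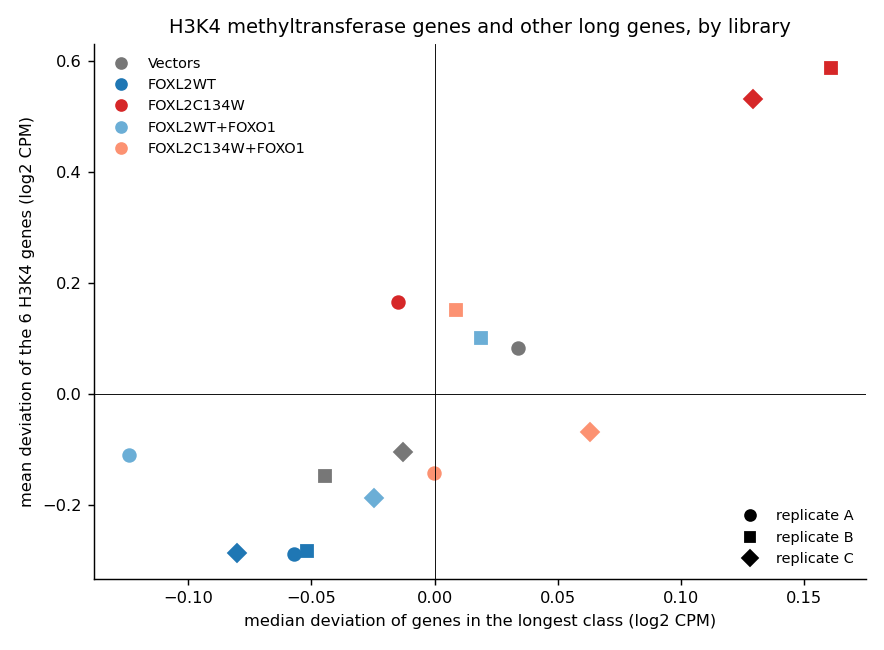
Mean deviation of the 6 lysine 4 methyltransferase genes (vertical axis, log2 CPM) against the median deviation of the other genes in the longest class (horizontal axis, log2 CPM), 1 point per library, coloured by condition and shaped by replicate. FOXL2C134W replicates B and C are at the upper right, at 0.59 and 0.53, and replicate A is at 0.17 with long genes at -0.02.

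Across the 15 libraries the 9 members other than EZH2 varied together, with a median Pearson r of 0.78 over 36 pairs and a range of 0.52, for KMT2B with NSD1, to 0.93, for KMT2C with SETD2. EZH2 had r between 0.06 and 0.39 with the other 9. The genes outside the list whose log2 CPM was most like the mean of the 6 lysine 4 enzymes were MDC1 (r = 0.98), PRRC2B (r = 0.98), SRRM2 (r = 0.97), HCFC1 (r = 0.97) and SPEN (r = 0.97), over 15 libraries. All 5 encode long transcripts, of 6651 to 11815 nucleotides by read-weighted length. The genes most like EZH2 were ZNF726 (r = 0.83), CEPT1 (r = 0.80) and CSPP1 (r = 0.80). These correlations are descriptions over libraries that share conditions.

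The lysine 4 enzymes work with shared and private subunits. Of 15 COMPASS core and partner subunits, 4 were higher and 1 was lower in FOXL2C134W than in FOXL2WT, with a median log2 fold change of 0.13, where 7.13% of all genes were called higher and 4.12% lower. HCFC1, a partner of the SETD1 and menin complexes, was at 0.70 ± 0.07 (adjusted p = 8.62e-06), NCOA6, a partner of KMT2C and KMT2D, at 0.57 ± 0.10 (adjusted p = 0.00092), and BOD1L1, a SETD1A partner, at 0.87 ± 0.18 (adjusted p = 0.0039). By read-weighted length HCFC1 was at 8680, NCOA6 at 6998 and BOD1L1 at 9611 nucleotides, against a list median of 3751. They were thus in the longest class, where 29.3% of genes were called higher. The other called subunits were MEN1 at 0.21 ± 0.07 (adjusted p = 0.0423) and BOD1 at -0.18 ± 0.05 (adjusted p = 0.0341), named after their values were seen. WDR82, a subunit of the SETD1 complexes, was at -0.05 ± 0.04 (adjusted p = 0.42). When FOXO1 was added to FOXL2C134W, 2 of the 15 were lower, against 0.707% of all genes, HCFC1 at -0.50 ± 0.07 (adjusted p = 0.00217) and NCOA6 at -0.41 ± 0.09 (adjusted p = 0.0449). In the longest class, 3.24% were called lower in that comparison. Of the 10 PRC2 subunits other than EZH2, 1 was higher in FOXL2C134W than in FOXL2WT, against 7.13% of all genes. It was AEBP2 at 0.32 ± 0.08 (adjusted p = 0.0121), and RBBP7 was at -0.02 ± 0.04 (adjusted p = 0.757). Against Vectors, AEBP2 was at 0.01 ± 0.08 (adjusted p = 0.936) in FOXL2C134W and at -0.31 ± 0.08 (adjusted p = 0.0258) in FOXL2WT.

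Among 21 other histone lysine methyltransferases, 5 were higher in FOXL2C134W than in FOXL2WT and 16 were not called, with a median log2 fold change of 0.05, where 7.13% of all genes were called higher. DOT1L, which methylates lysine 79, was at 0.75 ± 0.11 (adjusted p = 0.00023), SETD5 at 0.37 ± 0.07 (adjusted p = 0.00207) and NSD2, a paralog of NSD1, at 0.29 ± 0.05 (adjusted p = 0.00123). SETD7 was at 0.03 ± 0.04 (adjusted p = 0.745). DOT1L at 7364 nucleotides, NSD2 at 6424 and the uncalled SETD7 at 7248 were in the longest class, where 29.3% of genes were called higher. SETD5, at 5992 nucleotides, was in the next class, with 13.8%. Of 21 histone lysine demethylases, which remove these marks, 2 were higher, a share near the 7.13% of all genes, KDM4B at 0.38 ± 0.09 (adjusted p = 0.00768) and PHF2 at 0.21 ± 0.06 (adjusted p = 0.0435), and 19 were not called, among them KDM5C, which acts on lysine 4, at 0.11 ± 0.04 (adjusted p = 0.101). Their median length was 5316 nucleotides. EZH2 is more abundant in dividing cells, and of 18 cell cycle genes 2 were higher and 16 were not called in the same comparison, also near the 7.13% of all genes, with a median of 0.01. MKI67 was at 1.57 ± 0.16 (adjusted p = 1.3e-05) and TOP2A at 0.24 ± 0.07 (adjusted p = 0.0396), and RRM2 was at 0.02 ± 0.04 (adjusted p = 0.803). MKI67, at 11996 nucleotides, was also in the longest class. Against Vectors, 6 of the 18 were lower in FOXL2WT, MKI67 and TOP2A among them, where 3.61% of all genes were called lower. In FOXL2C134W 6 were lower and 1, MKI67, was higher, where 7.24% were called lower and 7.48% higher. TOP2A was not called there, at -0.10 ± 0.07 (adjusted p = 0.43).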

How the data were processed

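HGrC1 RNA was sequenced as stranded poly(A) libraries with 75 bp single-end reads, and the authors quantified transcripts on hg38 with Salmon 1.1.0. The deposited gene table holds estimated counts, which were rounded, and the deposited transcript tables hold TPM and estimated counts per transcript. The release of the authors' annotation is not given in the sources used here, and 98.4% of the transcripts were found in GENCODE 44, which supplied GC content. The GC content of a gene was the mean of its transcripts weighted by TPM. Transcript lengths were those given with the deposited transcript quantification. Genes were filtered with edgeR 4.0.16 (filterByExpr) and fitted over all 15 libraries by condition with TMM normalization and the quasi-likelihood test (R 4.3.3), with Benjamini-Hochberg adjustment over 13868 genes and a threshold of 0.05. CPM use TMM-scaled library sizes and log2 CPM a prior count of 2. The alternatives included DESeq2 1.42.0, other filters and normalization, length and GC offsets (lowess span 0.3), a replicate block and leaving out each library.

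The members and lists were chosen with earlier results of these data known. Named genes were all members, up to 3 called genes and the most abundant uncalled gene of each list, and the genes most like the members over libraries. Libraries were not paired by replicate letter in the main fit. Deviations of same-letter libraries correlated at -0.16 to 0.17. Different-letter libraries were not compared, so these values cannot decide whether a letter marks a shared culture or batch. The labels do not say whether replicates came from separate cultures, so p-values measure the spread between these libraries, which may be technical. Counts limit precision: the member with the fewest reads, SETD1B, had 177 in 1 library. No protein sequences were used here.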

Additional observations from a re-analysis of the deposited data

Results flagged for a closer look

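The effect of FOXO1-3A was called lower with FOXL2C134W for 2 of the 10 members by the interaction test, against 1.25% of all genes. In the length class of KMT2D 5.26% were called lower, and in that of SETD1A 2.74%. The count was 0 without FOXL2WT+FOXO1 replicate B, 0 without FOXL2C134W+FOXO1 replicate A and 0 in DESeq2 with transcript length offsets. It was 7 without FOXL2C134W replicate A. For KMT2D the effect with FOXL2C134W minus that with FOXL2WT was -0.99 on the log2 scale (adjusted p = 0.0156), and for SETD1A it was -0.62 (adjusted p = 0.0183). In KMT2D all 3 FOXL2C134W+FOXO1 libraries were below the FOXL2C134W libraries, and all 3 FOXL2WT+FOXO1 libraries were above the FOXL2WT libraries. In SETD1A the FOXL2C134W libraries were separated in the same way and the FOXL2WT libraries overlapped. The amounts of transfected transcripts differed alongside, with FOXO1 at 43.2 ± 4.06 CPM in FOXL2C134W+FOXO1 and 117 ± 14.5 CPM in FOXL2WT+FOXO1. SMAD3 was lower with FOXO1-3A than without it, at 392 ± 16.9 CPM against 843 ± 37.4 CPM with FOXL2C134W and at 969 ± 10.8 CPM against 2768 ± 154 CPM with FOXL2WT, and FOXL2 was at 152 ± 20.1 CPM against 147 ± 27 CPM and at 384 ± 14.97 CPM against 561 ± 5.89 CPM. The part of these transcripts in the differences was not tested.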

How the results depend on the processing

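Of the members, 9 were called between FOXL2C134W and FOXL2WT, and every alternative gave 8 or 9 except DESeq2 with transcript length offsets, which gave 5. Against Vectors, 7 were called, and that fit gave 3. Between FOXL2WT and Vectors, 0 became 2 with a filter of at least 1 count in any library and 2 with only the groups compared. For FOXO1 added to FOXL2C134W, 2 became 4 with DESeq2, 1 with its transcript length offsets (KMT2B, neither KMT2D nor SETD1A), 7 with at least 1 count in any library, 4 with at least 10 counts in every library, 0 with only the groups compared, 1 with GC content offsets with or without gene length, and 1 with a replicate block and gene length. For FOXO1 added to FOXL2WT, 0 became 1 with at least 1 count in any library. For the interaction, 2 became 4 with DESeq2, 0 with its transcript length offsets, 4 with DESeq2 size factors, 7 with at least 1 count in any library, 4 with at least 10 counts in every library and 4 with gene length offsets. Leaving out 1 library gave 8 to 9 between the FOXL2 forms, 1 to 8 for FOXL2C134W against Vectors, 0 for FOXL2WT against Vectors and for FOXO1 with FOXL2WT, 0 to 8 for FOXO1 with FOXL2C134W and 0 to 7 for the interaction. The replicate block alone gave 9, 6, 0, 2, 0 and 3 called members in the comparisons in the order above, and for FOXO1 with FOXL2C134W the 2 were KMT2D and SETD1B, not SETD1A. Whether libraries of the same letter share a culture or batch is not given by the labels and was not decided by their correlations. Calls among all genes were compared over the settings other than leaving out 1 library, which include the fit of only the groups compared. Between FOXL2C134W and FOXL2WT they were 1560 and ranged from 708 to 2041. For FOXL2C134W against Vectors they were 2041 and 936 to 2525, and for FOXL2WT against Vectors 842 and 459 to 1690. For FOXO1 with FOXL2C134W they were 99 and 32 to 463, for FOXO1 with FOXL2WT 7 and 7 to 260, and for the interaction 192 and 113 to 551. Leaving out 1 library gave 772 to 2120, 1275 to 2126, 305 to 662, 5 to 355, 2 to 7 and 45 to 423 in the same order.

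The following log2 fold changes turned sign. With transcript length offsets in DESeq2, EHMT1 was at -0.0159 between the FOXL2 forms, KMT2B at 0.75 and EHMT1 at 0.20 between FOXL2WT and Vectors, and KMT2A at 0.38 for FOXO1 with FOXL2C134W. In that fit KMT2B at -0.61, SETD2 at -0.0123, NSD1 at -0.0648 and EHMT1 at -0.31 turned for FOXO1 with FOXL2WT, and KMT2A at 0.0781, NSD1 at 0.0338 and EHMT1 at 0.11 turned in the interaction. NSD1 between FOXL2WT and Vectors was at 0.0229 with gene length offsets, 0.0249 with gene length and GC content, 0.0433 with read-weighted length and 0.0234 with a replicate block and gene length. With read-weighted length, an alternative chosen after seeing the data, NSD1 was also at 0.023 for FOXO1 with FOXL2C134W and 0.0187 in the interaction. Leaving out 1 library, EZH2 ranged from -0.0146 to 0.10 between the FOXL2 forms, from -0.0421 to 0.0751 between FOXL2WT and Vectors, from -0.0184 to 0.10 for FOXO1 with FOXL2C134W, from -0.0883 to 0.0489 for FOXO1 with FOXL2WT and from -0.0101 to 0.13 in the interaction. NSD1 ranged from -0.0557 to 0.0044 between FOXL2WT and Vectors, and for FOXO1 with FOXL2WT KMT2C ranged from -0.0131 to 0.26, NSD1 from -0.028 to 0.12 and EHMT1 from -0.0221 to 0.0307. The cause of these changes was not tested.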
